A study of Caenorhabditis elegans with 16 samples.

Results

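The comparison set *ech-6* RNAi against empty vector (EV) in worms that received vehicle only, 4 samples against 4, out of the 16 samples of the series. The members were the 8 samples labelled N2 EV or N2 ech6 with no P-80, and every gene of the table was tested. All were wild-type N2 *C. elegans* collected whole on day 1 of adulthood in pools of about 500 worms, and none carried a transgene or a mutation. EV worms ate HT115 bacteria with a vector that targets no gene, and *ech-6* RNAi worms ate HT115 bacteria that make double-stranded RNA of *ech-6*. Both groups ate these bacteria from the first larval stage, on plates with water as the vehicle. Feeding RNAi lowers a transcript without removing it and reaches neurons less well than other tissues. The other 8 samples received the same RNAi or EV with the fat supplement polysorbate 80 (P-80). They entered the same fit and serve below as a second set of worms with the same RNAi.

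*ech-6* encodes a mitochondrial enoyl-CoA hydratase, which adds water across the double bond of short enoyl-CoA esters. In *C. elegans* it is known for a step of the propionate shunt, the vitamin B12-independent route that turns propionyl-CoA into acetyl-CoA. In that route ACDH-1 oxidizes propionyl-CoA to acrylyl-CoA, ECH-6 hydrates it, HACH-1 removes the CoA, HPHD-1 oxidizes the resulting hydroxypropionate and ALH-8 makes acetyl-CoA. The same hydratase step also serves the breakdown of valine. *acdh-1* transcription is known to rise when propionate builds up, through the nuclear hormone receptors NHR-10 and NHR-68.

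Recovered reads on genes ranged from 15306307 to 27484877 per sample in EV and from 17542228 to 28129104 in *ech-6* RNAi. Ribosomal RNA took 17.6% to 20.5% of the reads in EV and 16.7% to 20.6% in *ech-6* RNAi, and mitochondrial transcripts took 14.8% to 17.6% and 15.9% to 17.7%. Levels are given as CPM, reads of a gene relative to the scaled size of its library. Changes are given on the log2 scale as *ech-6* RNAi minus EV, with the standard error (SE) and the adjusted p of limma's moderated test over all 19750 genes. The median SE of a change was 0.14. A gene with an adjusted p under 0.05 is said to have risen or fallen.

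The level of *ech-6* (WBGene00001155; chromosome III of WBcel235, 9751552 to 9752883, minus strand) checked the labels. It was 181, 169, 165 and 164 CPM in the 4 EV replicates and 68.3, 66.4, 178 and 71.8 CPM in the 4 *ech-6* RNAi replicates. Replicates 1, 2 and 4 of *ech-6* RNAi were far below every EV sample, and replicate 3 lay inside the EV range, at 105% of the EV mean. The change was -0.96 (SE 0.21, limma adjusted p = 0.0144), and two-sided exact permutation over the 4 and 4 samples gave p = 0.114. The limma call was lost without EV replicate 1 (adjusted p = 0.0605) and without *ech-6* RNAi replicate 1, 2 or 4 (adjusted p = 0.0505, 0.0577 and 0.0632). Without replicate 3 the change was -1.30 and 40.5% of the EV level was left. The exact p was then 0.0571, the smallest that 3 samples against 4 allow. The library labelled *ech-6* RNAi replicate 3 therefore goes against its label by this transcript.

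By the other transcripts, the library labelled replicate 3 lay with the *ech-6* RNAi samples. Genes were called in the fit without it, 250 higher (1.27% of all genes) and 96 lower (0.486%), and its own values were then placed on a scale where 0 is the EV mean and 1 the mean of the other *ech-6* RNAi replicates. Its median position was 0.83 over the 250 genes that rose and 0.75 over the 95 that fell other than *ech-6*. It lay on the *ech-6* RNAi side of the EV mean for 248 and 95 of them. The EV samples that set the 0 also helped to choose these genes, which favours positions above 0. No EV library was placed in the same way, so these counts have nothing to be read against. For *ech-6* itself the position of replicate 3 was -0.05. Left out in the same way, replicate 1 lay at 0.80 and 0.60, replicate 2 at 1.01 and 0.81, and replicate 4 at 1.05 and 1.02. In these worms the shunt genes were thus at RNAi levels in a library whose *ech-6* reads were at the EV level. What raised the *ech-6* reads of that library was not tested.

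With *ech-6* RNAi 580 genes were called (2.94% of all genes), of which 386 rose (1.95%) and 194 fell (0.982%). Fitted on the 8 vehicle samples alone, 571 rose and 878 fell, so that 39.4% of the calls were higher against 66.6% in the fit of all 16 samples. Of the 580, 49 rose and 19 fell at least 2-fold, and the median change was 0.44 among the genes that rose and -0.45 among those that fell. In 369 of the 386 and 183 of the 194 all samples of one group lay beyond all samples of the other. The calls came from these same samples, so this separation is no separate support for them. The *ech-6* RNAi samples lay wholly above EV in 6.03% of all genes and wholly below in 7.11%. The counts depended on single libraries: 166 genes rose and 42 fell without EV replicate 1, and 176 and 53 without EV replicate 4. They were 210 and 55 without *ech-6* RNAi replicate 4, and 550 and 258 without EV replicate 2. In all 8 fits that left out 1 vehicle sample, 147 of the 386 and 34 of the 194 were called. Without *ech-6* RNAi replicate 3, 73 of the 109 called genes that the naming rule picked were called. Of these 109, the calls lost without it were *C45B11.2*, *acox-1.1*, *lipl-4*, *dhs-3*, *gln-1*, *atp-4*, *F44E5.4*, *nlp-30*, *nlp-31*, *nlp-34*, *pals-36*, *Y48E1B.8*, *mtl-2*, *ftn-2*, *asp-10*, *asp-14*, *cpr-4* and *nhr-137*. The others were *col-8*, *col-99*, *col-101*, *ttr-2*, *ttr-59*, *fbxa-82*, *hil-1*, *prg-1*, *snb-1*, *egg-5*, *msd-1*, *msp-31*, *gsp-3*, *nspb-1*, *nspb-3*, *rpl-9*, *rpl-25.1* and *rpl-28*.

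**Figure D1:**
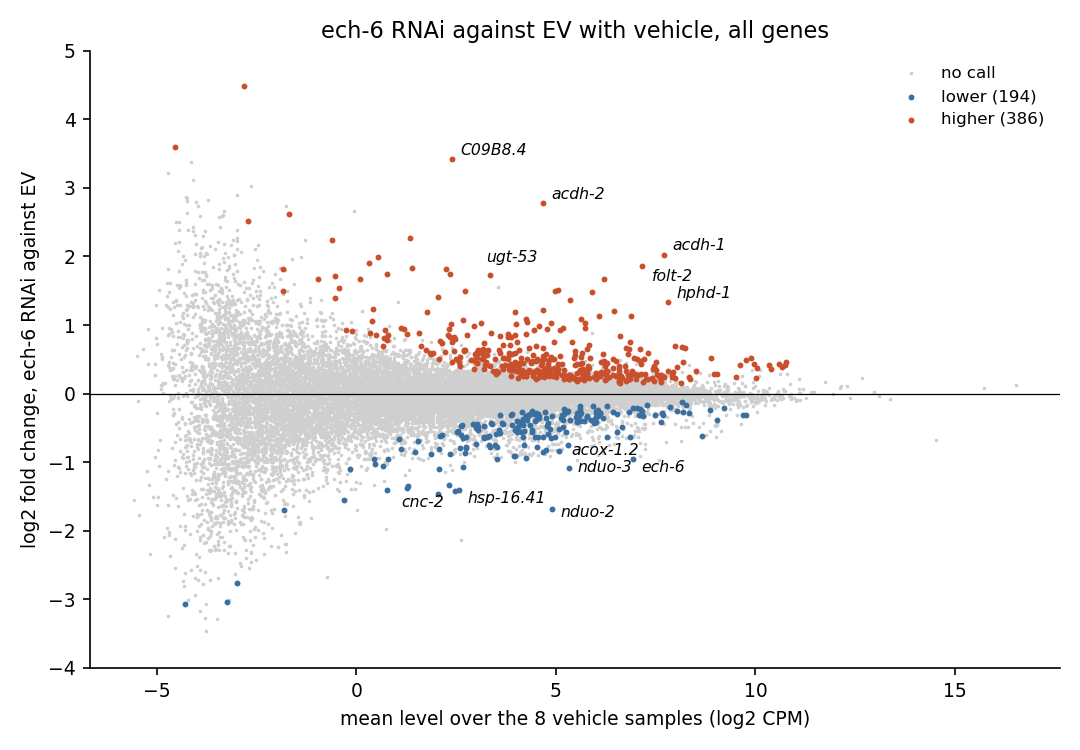
Change with *ech-6* RNAi against EV (vertical axis, log2) plotted on the mean level over the 8 vehicle samples (horizontal axis, log2 CPM), 1 point per gene. The 386 genes that rose are red, the 194 that fell are blue, and the labelled *acdh-2*, *acdh-1* and *folt-2* lie well above other genes of their level.

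The 4 shunt genes other than *ech-6* all rose. *acdh-1* (WBGene00016943; chromosome I, 6497436 to 6499560, plus strand), the acyl-CoA dehydrogenase of the first step, had 126, 82.3, 109 and 100.2 CPM in EV and 303, 557, 351 and 526 CPM in *ech-6* RNAi. Every *ech-6* RNAi sample was above every EV sample, and replicates 2 and 4 were higher than 1 and 3. The change was 2.03 (SE 0.26, limma adjusted p = 1.94e-04). *hphd-1* (WBGene00012608; II, 12994354 to 12996571), the hydroxypropionate-oxoacid transhydrogenase, had 148, 140.1, 141 and 141 CPM in EV and 276, 434, 316 and 436 CPM in *ech-6* RNAi. Its EV samples were nearly level and its *ech-6* RNAi samples were all above them, a change of 1.33 (SE 0.16, adjusted p = 7.46e-05).

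*hach-1* (WBGene00017301; III, 5555450 to 5557318), the hydroxypropionyl-CoA hydrolase, had 93.0, 88.5, 92.1 and 86.8 CPM in EV and 135, 167, 136 and 172 CPM in *ech-6* RNAi. The groups did not overlap, and the change was 0.75 (SE 0.10, limma adjusted p = 4.65e-04). *alh-8* (WBGene00000114; II, 11729055 to 11731198), the last enzyme of the shunt, had 492, 452, 484 and 482 CPM in EV and 543, 592, 558 and 631 CPM in *ech-6* RNAi. It was the most abundant of the 5 transcripts and changed least, by 0.28 (SE 0.053, adjusted p = 0.00549). The rises were thus graded, from *acdh-1* to *alh-8*, and without replicate 3 they were 2.11, 1.39, 0.80 and 0.30, each still called.

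**Figure D2:**
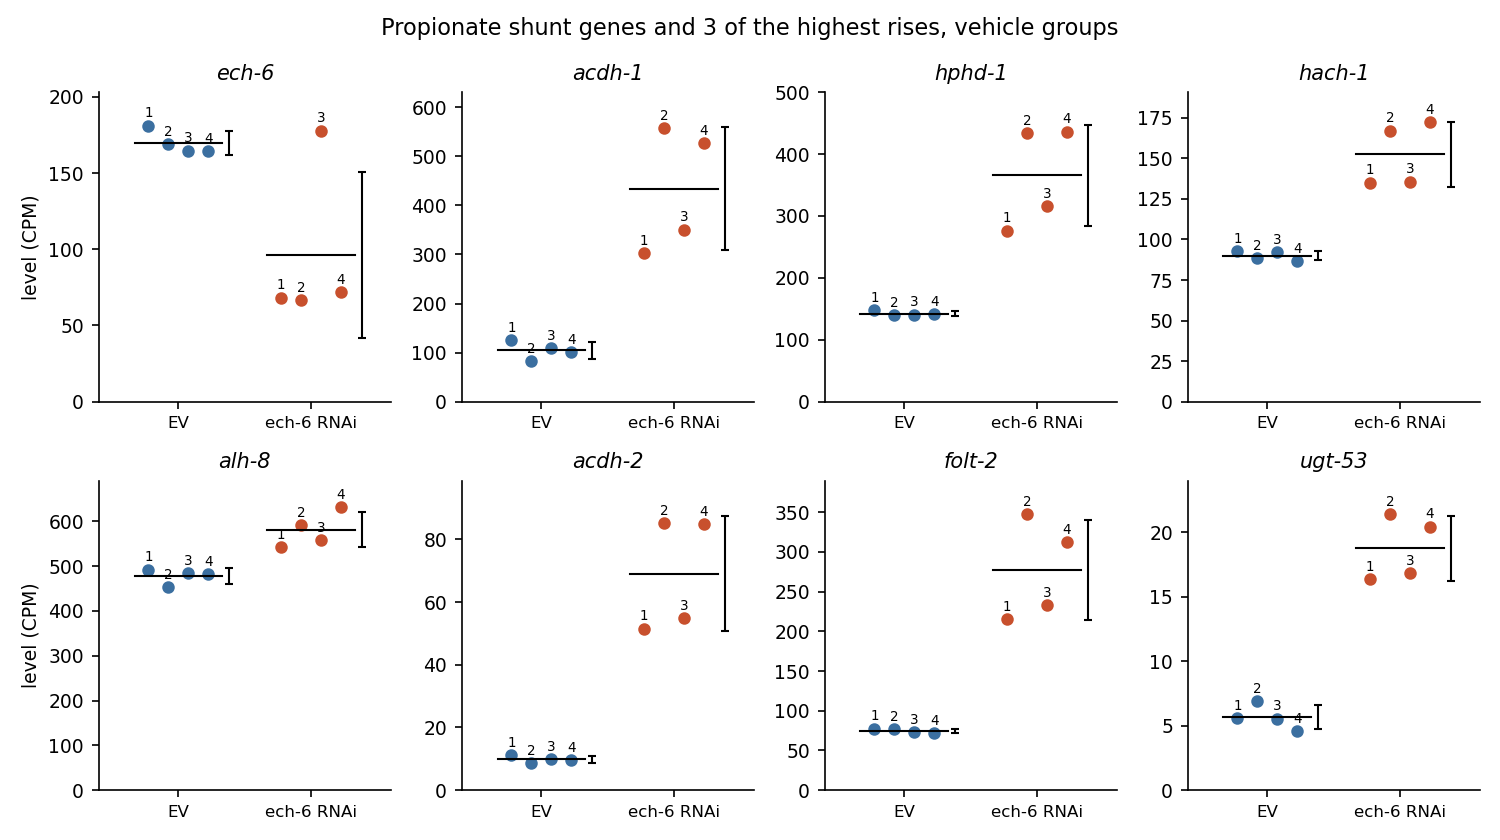
Level (CPM) of the 5 propionate shunt genes and of *acdh-2*, *folt-2* and *ugt-53* in the vehicle groups, with each point labelled by its replicate, a line for the mean and a bar for the SD (n = 4). *ech-6* RNAi replicate 3 sits with EV for *ech-6*, at 178 CPM, and with the other *ech-6* RNAi replicates for the 7 other genes.

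*acdh-2* (WBGene00015894; II, 5544778 to 5547492), a close relative of *acdh-1*, had 11.1, 8.69, 9.90 and 9.55 CPM in EV and 51.5, 85.2, 54.8 and 84.8 CPM in *ech-6* RNAi. The groups were widely apart, a change of 2.78 (SE 0.27, limma adjusted p = 1.32e-05). The authors' counting would leave out reads that fit both of these related genes. Among the 13 acyl-CoA dehydrogenase genes 3 rose, *acdh-1*, *acdh-2* and *acdh-9*, and *acdh-7* fell by 0.34 (adjusted p = 0.0201). The share called was 30.8%, against 2.94% of all genes.

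The B12-dependent route of propionate breakdown did not follow the shunt in this test. None of its 6 genes, among them *mmcm-1* for methylmalonyl-CoA mutase, was called by limma, and their median change was -0.06 against 0.00 over all genes. In the fit of the vehicle groups alone 1 of the 6 was higher. None of 3 nuclear hormone receptor genes listed beside the shunt was called, *nhr-10* at 0.15 (adjusted p = 0.179), *nhr-68* at 0.11 (adjusted p = 0.692) and *nhr-114* at -0.06 (adjusted p = 0.802). The list of hydratases held 9 genes beside *ech-6*. Limma called 0 of the 9, and 1 was higher in the fit of the vehicle groups alone. Next to *ech-6*, *T05G5.5* lies on the same strand. It had 19.3, 20.2, 19.3 and 18.4 CPM in EV and 16.55, 13.98, 14.3 and 13.3 CPM in *ech-6* RNAi, replicate 3 included, and fell by 0.41 (adjusted p = 0.0167). *T05G5.5* was called in 14 of 18 alternative fits. The paper places it in an operon with *ech-6*, *gcc-2* and *vps-53*, and reports no consistent or significant fall of these neighbours. Here *gcc-2* and *vps-53* were not called, with changes from -0.04 to 0.12.

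Branched-chain amino acid breakdown, the mitochondrial route from leucine, isoleucine and valine, had 7 of 16 genes higher and 0 lower, in a comparison where 1.95% of all genes were higher. The median change of the 16 was 0.05. *hach-1* and *alh-8* belong to both routes. *C05C10.3*, a predicted 3-oxoacid CoA-transferase, had 233, 249, 251.2 and 228 CPM in EV and 348, 406, 371 and 396 CPM in *ech-6* RNAi, a change of 0.66 (SE 0.079, limma adjusted p = 8.04e-05). *ivd-1*, the isovaleryl-CoA dehydrogenase of leucine breakdown, had 151, 159, 154 and 152 CPM in EV and 203, 199.9, 197 and 208 CPM in *ech-6* RNAi. Its groups were narrow and apart, with a change of 0.39 (SE 0.046, adjusted p = 7.48e-05).

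The other 3 rose to a similar degree. *acdh-9*, related to the isobutyryl-CoA dehydrogenase of valine breakdown, rose by 0.40 (SE 0.072, limma adjusted p = 0.00402). *B0250.5*, related to 3-hydroxyisobutyrate dehydrogenase, rose by 0.33 (SE 0.058, adjusted p = 0.00326). *kat-1*, a mitochondrial thiolase, rose by 0.40 (SE 0.057, adjusted p = 6.07e-04). All 7 were called without replicate 3, with voom weights and in each of the 8 fits that left out 1 sample.

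Peroxisomal acyl-CoA oxidases, which shorten long side chains, had 3 of 7 genes lower and 0 higher (0.982% of all genes were lower), with a median change of -0.26. *acox-1.2* (WBGene00008565; I, 12942280 to 12946588) had 50.3, 35.8, 42.9 and 53.8 CPM in EV and 26.1, 25.1, 24.6 and 25.2 CPM in *ech-6* RNAi. The *ech-6* RNAi samples were nearly equal and below every EV sample, a change of -0.84 (SE 0.15, limma adjusted p = 0.00367). *acox-1.4* fell by 0.41 (adjusted p = 0.0296) and *acox-1.1* by 0.31 (adjusted p = 0.0323). *acox-1.1* and *acox-1.2* are neighbours on the chromosome. Without EV replicate 1, or without EV replicate 4, 1 of these 3 calls was left.

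Few other genes of lipid and energy metabolism changed. *icl-1*, the bifunctional enzyme of the glyoxylate cycle, had 1067, 917, 944 and 975 CPM in EV and 789, 768, 827 and 749.7 CPM in *ech-6* RNAi, and fell by 0.32 (SE 0.056, limma adjusted p = 0.00326). The acyl-CoA synthetase gene *acs-2* fell by 0.31 (adjusted p = 0.0421) and the lipid droplet gene *dhs-3* by 0.29 (adjusted p = 0.0495), and each was called in at most 9 of 18 alternative fits. *pod-2*, the acetyl-CoA carboxylase of fatty acid synthesis, rose by 0.23 (SE 0.036, adjusted p = 0.00119). It was the only call among the 24 genes that build, lengthen or desaturate fatty acids. *lipl-4*, a lysosomal lipase gene near the detection limit, fell by 1.1 (adjusted p = 0.0293). *idh-1*, an isocitrate dehydrogenase gene, rose by 0.26 (adjusted p = 0.0120), the glutaminase gene *glna-2* by 0.26 (adjusted p = 0.00947) and *cth-2*, of the transsulfuration pathway, by 0.22 (adjusted p = 0.00731). *gln-1*, for glutamine synthetase, fell by 0.30 (adjusted p = 0.0447). In limma 0 of 24 glycolysis and gluconeogenesis genes, 0 of 6 carnitine palmitoyltransferase genes and 0 of 7 vitellogenin and yolk receptor genes were called. With the vehicle groups fitted alone the counts called were 0, 1 and 1.

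**Figure D3:**
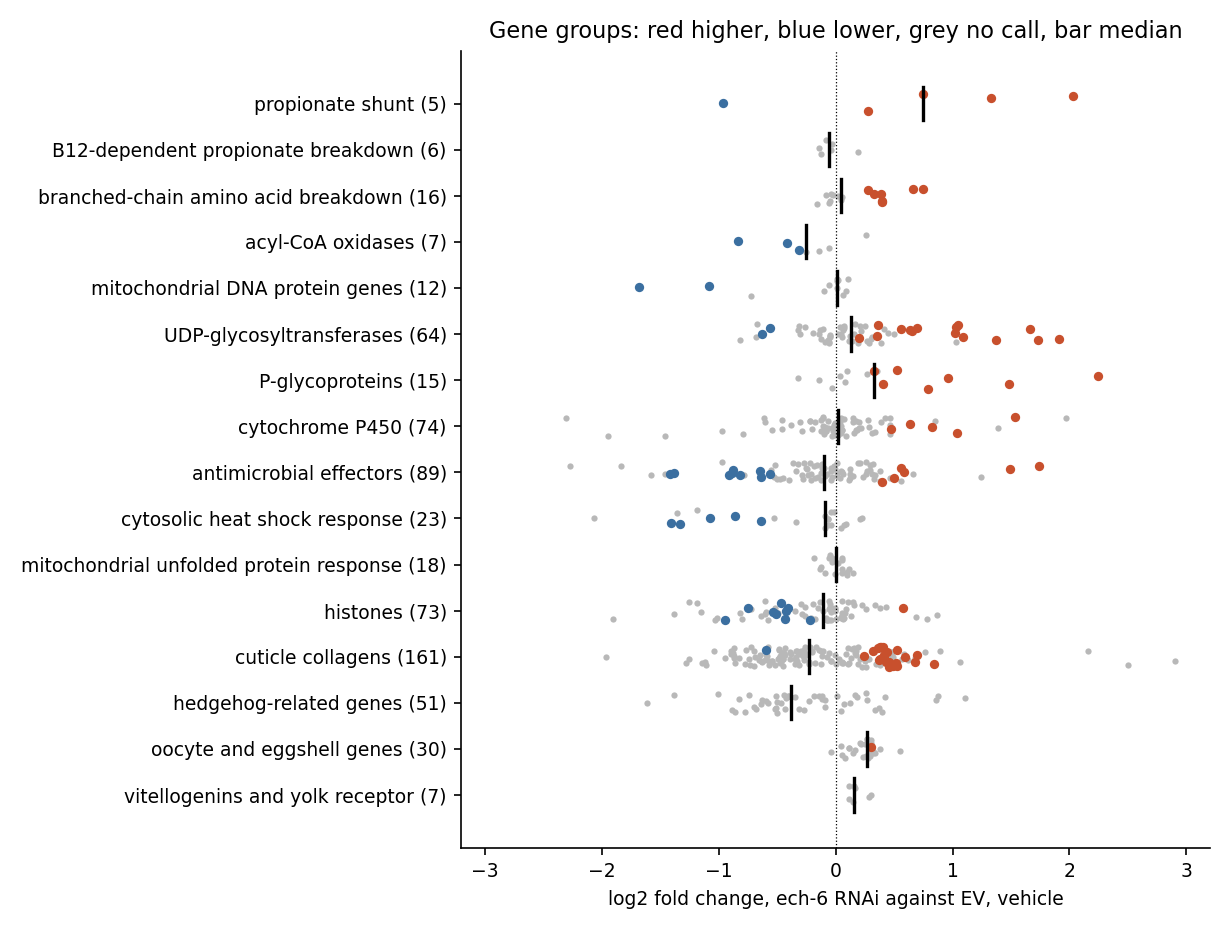
Change with *ech-6* RNAi against EV (horizontal axis, log2) of the members of 16 gene groups, with the number of members in parentheses. Red points rose, blue points fell, grey points were not called and the black bar is the median. The shunt, the UDP-glycosyltransferases and the P-glycoproteins carry red points, the heat shock group blue points, and the hedgehog-related genes lie left of 0 with no call.

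Genes of the conjugation and export of foreign compounds were among those that rose. Of 64 UDP-glycosyltransferase genes, which attach sugars to small molecules, 15 rose and 2 fell (26.6% called, against 2.94% of all genes). Their median change was 0.13. *ugt-53* (WBGene00020182; V, 2849343 to 2852028) had 5.602, 6.89, 5.54 and 4.60 CPM in EV and 16.3, 21.4, 16.8 and 20.4 CPM in *ech-6* RNAi. It changed by 1.73 with an SE of 0.13, and its limma adjusted p of 5.43e-07 was the smallest of all genes. *ugt-26* had 40.2, 42.2, 45.5 and 39.3 CPM in EV and 104, 168, 119.7 and 147 CPM in *ech-6* RNAi, a change of 1.67 (SE 0.16, adjusted p = 1.30e-05). *ugt-29* rose by 1.37 (adjusted p = 3.28e-05) and *ugt-32*, a weakly expressed gene, by 1.91 (adjusted p = 6.86e-04). The 15 became 14 without replicate 3 and 12 without EV replicate 4.

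Efflux transporters were looked at after their values were seen. Of 15 P-glycoprotein genes 7 rose and 0 fell (46.7% called, against 2.94% of all genes), with a median change of 0.33. *pgp-5* had 33.03, 34.2, 40.0 and 35.6 CPM in EV and 68.2, 134, 91.8 and 118 CPM in *ech-6* RNAi, a change of 1.48 (SE 0.21, limma adjusted p = 5.93e-04). *pgp-6* rose by 0.96 (adjusted p = 0.0135) and *pgp-7* by 2.25 (adjusted p = 0.0115), and these 2 genes are 963 bp apart. *pgp-13* rose by 0.79 (adjusted p = 8.95e-04). Without EV replicate 1 3 of the 7 were called. *pmp-5*, a predicted peroxisomal ABC transporter gene, rose by 0.95 (adjusted p = 2.28e-04), and *amt-1*, of the ammonium transporter family, by 1.01 (adjusted p = 8.04e-05).

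Of 74 cytochrome P450 genes, which oxidize small molecules, 5 rose and 0 fell (6.76% called, against 2.94% of all genes). *cyp-14A5* rose by 1.03 (SE 0.14, limma adjusted p = 4.86e-04) and *cyp-33C8* by 0.83 (SE 0.11, adjusted p = 3.57e-04). *cyp-14A1* rose by 0.63 (adjusted p = 0.0115), and *cyp-13A12*, at 0.298 to 1.62 CPM, by 1.53 (adjusted p = 0.0117). Of 48 glutathione S-transferase genes 3 rose and 1 fell (8.33% called). *gst-4*, a reporter of the oxidative stress response, had 35.6, 31.3, 34.3 and 30.4 CPM in EV and 51.7, 55.99, 55.5 and 57.7 CPM in *ech-6* RNAi. Its groups were well apart, a change of 0.75 (SE 0.077, adjusted p = 2.15e-05), and it was the only call among 22 oxidative stress enzymes. *gstk-1* rose by 0.45 (adjusted p = 8.95e-04) and *gst-41* by 0.86 (adjusted p = 0.00557). *gsto-1* had 33.6, 37.7, 37.1 and 33.8 CPM in EV and 27.2, 18.9, 18.2 and 17.6 CPM in *ech-6* RNAi, and fell by 0.82 (adjusted p = 0.00515).

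Among genes that averaged at least 1 CPM and did not overlap between groups, the largest rise was in *C09B8.4* (WBGene00015623; X, 6018442 to 6019936, minus strand), of no function given in the files. It had 1.30, 2.09, 1.87 and 1.31 CPM in EV and 12.5, 22.7, 14.04 and 22.3 CPM in *ech-6* RNAi. The groups were far apart, with a change of 3.41 (SE 0.29, limma adjusted p = 4.24e-06). *folt-2* (WBGene00018138; V, 2872465 to 2875600), of the folate transporter family, had 77.5, 76.4, 73.3 and 72.1 CPM in EV and 215, 347, 233 and 312 CPM in *ech-6* RNAi, a change of 1.86 (SE 0.17, adjusted p = 5.66e-06). Among the tested genes placed on the assembly, it is the one next to *ugt-53*. *parg-2*, for a poly(ADP-ribose) glycohydrolase, had 1.11, 0.475, 1.69 and 1.85 CPM in EV and 3.74, 7.05, 5.30 and 6.70 CPM in *ech-6* RNAi, a change of 2.27 (SE 0.36, adjusted p = 0.00119).

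*C25F9.11* rose by 1.99 (limma adjusted p = 0.00326), *C49G7.12* by 1.83 (adjusted p = 0.00334), *T07D3.9* by 1.51 (adjusted p = 3.28e-05) and *C45B11.2* by 1.68 (adjusted p = 0.0323). *C45B11.2* was called in 9 of 17 alternative fits, and the others in all. The 2-fold rises shared an order among replicates. *ech-6* RNAi replicates 2 and 4 were both above replicates 1 and 3 in 38 of these 49 genes (77.6%), against 16.8% of all genes. The *ech-6* level was 68.3 CPM in replicate 1, 66.4 in replicate 2, 178 in replicate 3 and 71.8 in replicate 4. Its relation to that order was not tested.

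Genes of the response to microbes moved in both directions. Of 89 antimicrobial effector genes 6 rose and 9 fell (16.9% called, against 2.94% of all genes), with a median change of -0.10. *irg-1*, a gene of the infection response, had 2.61, 2.61, 2.93 and 2.93 CPM in EV and 8.08, 12.2, 6.96 and 10.8 CPM in *ech-6* RNAi, a change of 1.74 (SE 0.25, limma adjusted p = 6.86e-04). *irg-2* had 4.56, 2.76, 4.51 and 4.06 CPM in EV and 8.25, 15.3, 9.04 and 12.7 CPM in *ech-6* RNAi, a change of 1.49 (SE 0.23, adjusted p = 8.95e-04). Both were above EV in all 4 *ech-6* RNAi samples. Of 163 C-type lectin genes 8 rose and 2 fell (6.13% called, against 2.94% of all genes). They included *clec-47* at 1.81 (adjusted p = 3.28e-05), *clec-43* at 1.75 (adjusted p = 8.95e-04), *clec-72* at 0.94 (adjusted p = 0.00721) and *clec-97* at 0.74 (adjusted p = 7.44e-04).

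The effectors that fell were mostly antimicrobial peptides of the epidermis, in 2 chromosomal clusters. *cnc-2* (WBGene00000556; V, 1449665 to 1450183), for a caenacin, had 9.58, 8.12, 8.18 and 10.9 CPM in EV and 3.81, 4.20, 2.65 and 3.18 CPM in *ech-6* RNAi. The groups were apart, a change of -1.42 (SE 0.21, limma adjusted p = 8.95e-04). Its neighbours *cnc-3* and *cnc-4* fell by 0.88 and 0.91. *nlp-30* had 6.77, 2.80, 3.37 and 3.58 CPM in EV and 2.29, 1.12, 1.27 and 1.51 CPM in *ech-6* RNAi, and fell by 1.38 (SE 0.33, adjusted p = 0.0290). Its neighbours *nlp-31* and *nlp-34* fell by 0.82 (adjusted p = 0.0204) and 0.88 (adjusted p = 0.0447). Without EV replicate 1 the list had 2 calls in each direction, and without *ech-6* RNAi replicate 3 it had 3 in each.

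Of 23 genes of the cytosolic heat shock response 5 fell (21.7%, against 0.982% of all genes) and 0 rose, with a median change of -0.09. The small heat shock proteins and Hsp70 chaperones they encode bind unfolded proteins. *hsp-16.41* (WBGene00002018; V, 1805178 to 1805875, plus strand) had 9.45, 8.69, 10.6 and 10.1 CPM in EV and 4.48, 3.68, 3.45 and 3.07 CPM in *ech-6* RNAi, a change of -1.41 (SE 0.20, limma adjusted p = 5.79e-04). *hsp-16.2* (V, 1804334 to 1804957, minus strand), 220 bp away, had 5.54, 7.27, 10.2 and 9.55 CPM in EV and 4.02, 3.32, 2.59 and 2.79 CPM in *ech-6* RNAi. It fell by 1.33 (SE 0.17, adjusted p = 2.42e-04). Neither pair of groups overlapped.

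The Hsp70 gene *F44E5.5* had 8.73, 7.60, 10.304 and 10.7 CPM in EV and 4.37, 3.92, 4.89 and 4.35 CPM in *ech-6* RNAi, a change of -1.08 (SE 0.17, limma adjusted p = 0.00103). *F44E5.4*, 350 bp away, fell by 0.86 (adjusted p = 0.0485) and *hsp-70* by 0.64. Both pairs belong to families of similar genes, so their separate values are uncertain. 4 of the 5 were called without replicate 3. The regulator *hsf-1* changed by 0.09 (adjusted p = 0.406). Of 18 genes of the mitochondrial unfolded protein response and 22 of the endoplasmic reticulum response limma called 0 and 0. With the vehicle groups fitted alone the counts were 0 and 4, the 4 all lower. The mitochondrial chaperone gene *hsp-6* had 529, 523, 492 and 522 CPM in EV and 483, 482, 475 and 497 CPM in *ech-6* RNAi, a change of -0.09 (adjusted p = 0.149).

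Of the 12 protein genes of mitochondrial DNA, which encode respiratory chain subunits, 2 fell (16.7% called, against 2.94% of all genes). *nduo-2* (WBGene00010961; MtDNA, 3389 to 4269) had 79.1, 46.4, 39.6 and 57.7 CPM in EV and 19.8, 17.9, 16.7 and 13.3 CPM in *ech-6* RNAi. The groups were apart, with a change of -1.68 (SE 0.33, limma adjusted p = 0.00780). *nduo-3* (WBGene00010966; MtDNA, 11356 to 11691) had 65.3, 48.0, 62.2 and 61.1 CPM in EV and 33.9, 28.4, 23.8 and 25.7 CPM in *ech-6* RNAi, a change of -1.09 (SE 0.17, adjusted p = 9.50e-04). Both encode subunits of complex I, and they lie apart on the mitochondrial genome. *nduo-5*, which begins where *nduo-3* ends, changed by 0.01 (adjusted p = 0.964). *ctb-1*, the next protein gene after *nduo-2*, changed by 0.06 (adjusted p = 0.685). The 9 genes other than *nduo-2*, *nduo-3* and the scarce *ndfl-4* ran from -0.10 in *nduo-6* to 0.11 in *ctc-1*. All but *nduo-6* of these 9 had over 580 CPM in each vehicle sample. Of 47 nuclear respiratory chain genes only *atp-4*, for an ATP synthase subunit, was called, at -0.43 (adjusted p = 0.0299).

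**Figure D4:**
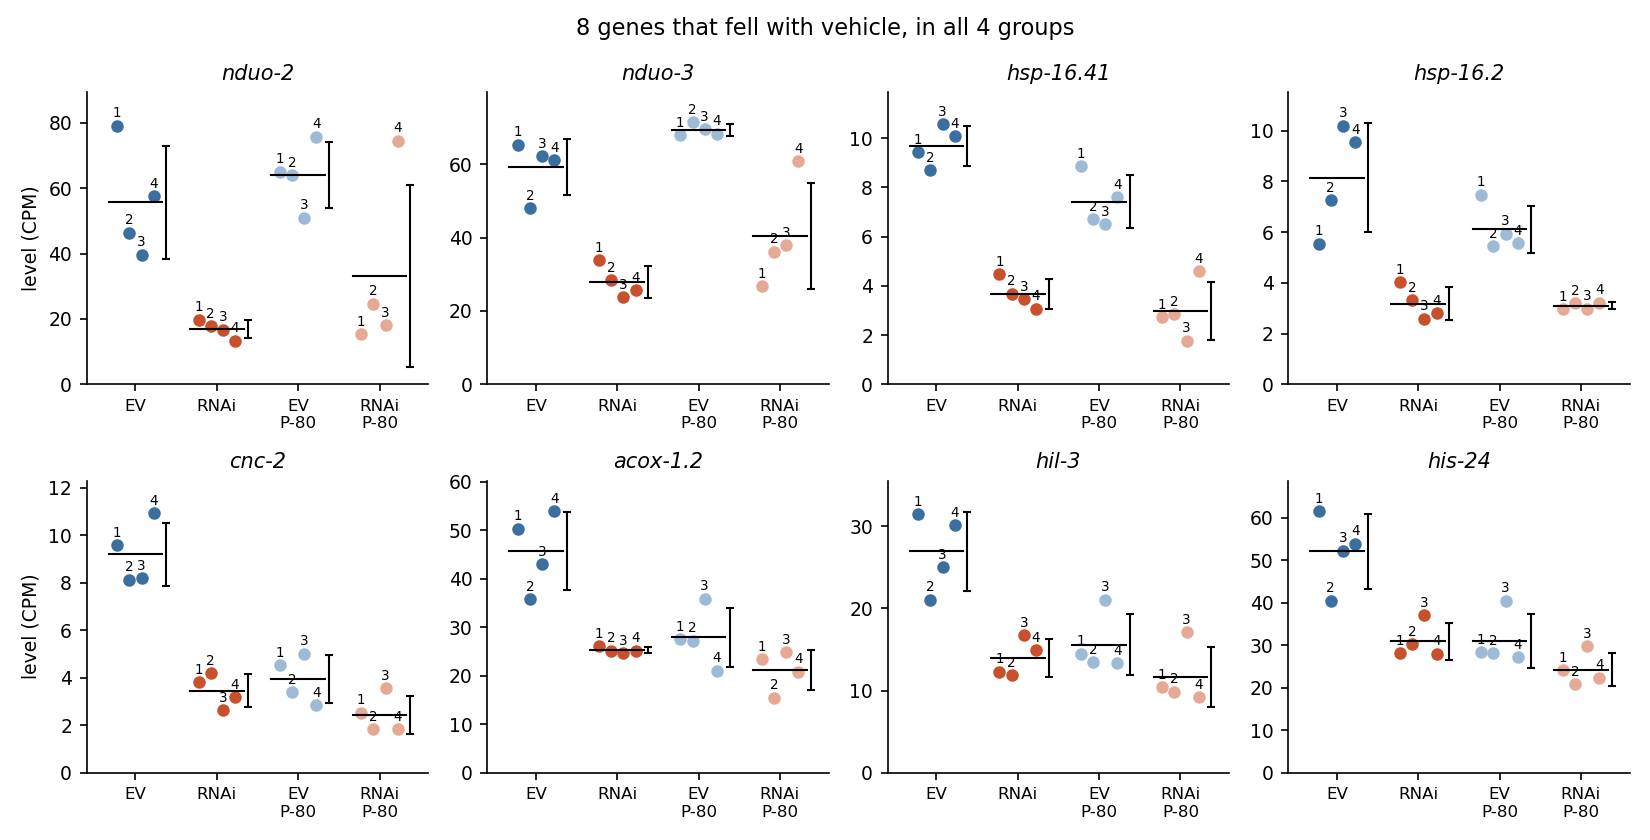
Level (CPM) of 8 genes that fell with vehicle, in all 4 groups of the series, with each point labelled by its replicate, a line for the mean and a bar for the SD (n = 4). In replicate 4 of *ech-6* RNAi with P-80 *nduo-2* was at the EV level, at 74.5 CPM, and *nduo-3*, at 60.7 CPM, was below every EV sample with P-80. The EV levels of *acox-1.2*, *hil-3* and *his-24* with P-80 were near those of *ech-6* RNAi with vehicle.

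Histone genes had 9 lower and 1 higher of 73 (13.7% called, against 2.94% of all genes). The 9 became 5 without EV replicate 1, 6 without EV replicate 4 and 7 without *ech-6* RNAi replicate 3. The linker histone gene *hil-3* (WBGene00001854; X, 8159169 to 8160084) had 31.5, 21.04, 25.04 and 30.1 CPM in EV and 12.31, 11.9, 16.8 and 14.9 CPM in *ech-6* RNAi. The groups were apart, a change of -0.94 (SE 0.18, limma adjusted p = 0.00724). *his-24* (X, 14490094 to 14491119), also a linker histone gene, had 61.6, 40.5, 52.2 and 53.8 CPM in EV and 28.2, 30.2, 37.1 and 28.02 CPM in *ech-6* RNAi, and fell by 0.75 (SE 0.14, adjusted p = 0.00531). *hil-1* rose by 0.58 (adjusted p = 0.0388). The core histone genes that fell, such as *his-3* at -0.53 (adjusted p = 0.00679), have many near copies. Most histone messages carry no poly(A) tail, but the libraries were made by removing ribosomal RNA, which does not select for that tail.

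Abundant cuticle collagens rose. Of 161 collagen genes 22 rose and 1 fell (14.3% called, against 2.94% of all genes), while the median change of all 161 was -0.23. The 22 had 5.1 to 1501 CPM in EV, with a median of 677, against a median of 75.2 over all 161. *col-19*, a marker of the adult cuticle, had 1031, 1209, 1276 and 1002 CPM in EV and 1637, 1467, 1465 and 1421 CPM in *ech-6* RNAi, a change of 0.41 (SE 0.072, limma adjusted p = 0.00296). *col-140* rose by 0.45 (adjusted p = 0.00515), *col-119* by 0.52 (adjusted p = 0.0183), *col-142* by 0.70 (adjusted p = 0.00910) and *col-8* by 0.68 (adjusted p = 0.0263). *col-101* overlapped between groups, with 47.9 to 100.1 CPM in EV and 99.5 to 215 CPM in *ech-6* RNAi, and was called in 8 of 18 alternative fits. *col-99* fell by 0.60 (adjusted p = 0.0461).

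In all 22 collagens that rose, EV replicates 1 and 4 were both below EV replicates 2 and 3, an order held by 220 of the 386 genes that rose and by 21.1% of all genes. Without EV replicate 1 13 of them were called. Fitted on the vehicle groups alone, where 2.89% of all genes rose and 4.45% fell, 27 collagens rose and 57 fell. With voom weights, where 1.9% of all genes rose and 1.47% fell, 21 collagens rose and 4 fell, and without replicate 3 16 rose and 0 fell. The lists of hedgehog-related genes, astacin and molting genes and patched-related genes had medians below 0 with 1 call. The 51 hedgehog-related genes had a median change of -0.38 with 0 called by limma, and 1 higher and 13 lower in the fit of the vehicle groups alone. The 50 astacin and molting genes had a median of -0.20, with *nas-20* up by 0.41 (adjusted p = 0.0105) and 1 higher and 9 lower in that fit. The 28 patched-related genes, chosen after their values were seen, had a median of -0.37 with 0 called, and 0 higher and 13 lower in that fit. In whole worms, fewer cells of a type and less RNA per cell cannot be told apart.

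Germ-line lists leaned the other way. Of 105 sperm genes 8 rose and 0 fell (7.62% called, against 2.94% of all genes), with a median change of 0.16. They included *msp-71* at 0.47 (limma adjusted p = 0.0259), *nspb-3* at 0.44 (adjusted p = 0.0479), *nspb-1* at 0.42 (adjusted p = 0.0159) and *msd-1* at 0.34 (adjusted p = 0.0402). These genes belong to families of near copies, and 0 of them were called without EV replicate 4, 1 without EV replicate 1 and 1 without *ech-6* RNAi replicate 3. Of 30 oocyte and eggshell genes 1, *egg-5*, rose by 0.31 (adjusted p = 0.0411), a share of 3.33%, near the 2.94% of all genes. None was called without EV replicate 1, EV replicate 4 or *ech-6* RNAi replicate 3. The median of the 30 was 0.27, against 0.00 over all genes, and 29 of them were above 0. In the fit of the vehicle groups alone 13 rose, where 2.89% of all genes did. Ribosomal protein genes had 0 higher and 4 lower of 80 (5% called, against 2.94% of all genes). The 4 were *rpl-25.1* at -0.56 (adjusted p = 0.0372), *rpl-28* at -0.28 (adjusted p = 0.0447), *rpl-11.2* at -0.25 (adjusted p = 0.0142) and *rpl-9* at -0.22 (adjusted p = 0.0375). None was called without EV replicate 1. The median change of the 80 was small, at -0.08 against 0.00 over all genes, and 77 of them were below 0. In the fit of the vehicle groups alone 13 fell, where 4.45% of all genes did.

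The markers of whole adult worms were present in every sample. The summed level of 10 neuron markers was 227 to 238 CPM in EV and 213 to 228 CPM in *ech-6* RNAi, with *snb-1* lower by 0.18 (limma adjusted p = 0.0351). The 8 body wall muscle markers summed to 13964 to 14688 CPM and 14023 to 14573 CPM, with 0 called. The 11 intestine markers summed to 6679 to 8416 CPM and 7170 to 9483 CPM, with the metallothionein gene *mtl-2* higher by 0.62 (adjusted p = 0.0430). The 10 hypodermis markers summed to 3533 to 4351 CPM and 4705 to 5676 CPM, a sum that *col-19*, *col-119* and *col-140* made up for the most part. The other 7 hypodermis markers were not called, among them *dpy-7* at -0.89 (adjusted p = 0.227), *bli-1* at -0.74, *dpy-4* at -0.72 and *rol-6* at -0.65. These 4 were lower in the fit of the vehicle groups alone. The 12 germ line markers summed to 1601 to 1738 CPM and 1679 to 1869 CPM, with 0 called. The 10 sperm markers summed to 536 to 594 CPM and 601 to 654 CPM, with *msp-31* higher by 0.26 (adjusted p = 0.0445) and *gsp-3* by 0.18 (adjusted p = 0.0447). The 10 pharynx markers summed to 1495 to 1571 CPM and 1583 to 1853 CPM, with 0 called. The part of tissue makeup in the collagen and germ-line values was not tested.

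Among the remaining lists, lysosomal proteases had 2 higher and 4 lower of 26 (23.1% called, against 2.94% of all genes). None was lower without EV replicate 1, EV replicate 4 or *ech-6* RNAi replicate 3, and 8 were lower in the fit of the vehicle groups alone. The aspartyl protease gene *asp-13* had 61.0, 53.2, 62.2 and 60.8 CPM in EV and 76.5, 101, 75.7 and 106 CPM in *ech-6* RNAi, and rose by 0.58 (limma adjusted p = 0.00153). *asp-14* rose by 0.31 (adjusted p = 0.0329). The cathepsin B gene *cpr-4* had 151, 148, 149 and 135 CPM in EV and 127, 84.2, 85.7 and 84.6 CPM in *ech-6* RNAi, with replicate 1 nearest to EV, and fell by 0.63 (adjusted p = 0.0378). *asp-10* fell by 0.61 (adjusted p = 0.0282). The ferritin gene *ftn-2* fell by 0.31 (adjusted p = 0.0142) and *cdr-4*, of a cadmium-responsive family, rose by 0.58 (adjusted p = 0.0142). Of 222 nuclear hormone receptor genes 2 rose and 1 fell, 1.35% against the 2.94% called of all genes. *nhr-101* rose by 0.87 (adjusted p = 3.28e-05), *nhr-137* by 0.31 (adjusted p = 0.0430), and *nhr-17* fell by 0.56 (adjusted p = 7.96e-04).

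Of 232 F-box genes 5 rose, a share of 2.16% that is near the 1.95% of all genes. They were *fbxa-60* by 0.83 (limma adjusted p = 0.00104), *C10C5.2* by 0.83 (adjusted p = 0.0308), *fbxa-82* by 0.76 (adjusted p = 0.0166), *fbxa-180* by 0.63 (adjusted p = 0.00131) and *fbxa-74* by 0.59. Of 58 transthyretin-like genes 3 rose and 1 fell (6.9% called, against 2.94% of all genes). *ttr-42* rose by 0.62 (adjusted p = 0.0216), *ttr-59* by 0.25 (adjusted p = 0.0445) and *ttr-2* by 0.20 (adjusted p = 0.0445), and *ttr-44* fell by 0.41 (adjusted p = 0.00453). Of 37 genes of the RNA interference machinery *prg-1*, for a Piwi Argonaute, rose by 0.16 (adjusted p = 0.0228) and no other was called. *pals-36*, with 0.143 to 0.657 CPM in EV and 0 to 0.160 CPM in *ech-6* RNAi, fell by 3.05 (adjusted p = 0.0447) on very few reads, the only call among 33 genes of the intracellular pathogen response. Among called genes that averaged at least 1 CPM and did not overlap between groups, the 10 largest falls also held *F20G2.5* at -1.46 (adjusted p = 0.00637), *R09E10.13* at -1.40 (adjusted p = 0.0204), *Y48E1B.8* at -1.34 (adjusted p = 0.0405) and *srr-6* at -1.11 (adjusted p = 0.00274).

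Limma called 0 genes in 10 further lists. These were 73 BATH and MATH domain genes, 13 genes of the hypoxia and hydrogen sulfide response, 8 early zygotic genes, 33 proteasome subunits, 22 vacuolar ATPase subunits, 30 muscle genes, 12 genes and 29 peptides of insulin-like signalling, 9 genes of tryptophan breakdown and 9 of phenylalanine and tyrosine breakdown. In the fit of the vehicle groups alone the genes called were 0, 1, 0, 0, 2, 2, 1, 0, 1 and 0, in the same order. Of 105 neuropeptide genes the 3 that fell were *nlp-30*, *nlp-31* and *nlp-34* (2.86% called, near the 2.94% of all genes).

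Some genes that changed were neighbours, counted among the 19651 tested genes that were placed on the assembly. Of the 386 genes that rose, 62 had an immediate neighbour on the chromosome that rose too, and 3.84% of all genes lay beside such a gene. Of the 192 placed genes that fell, 18 (9.38%) had a neighbour that fell, against 1.91%. The longest run was *ZK813.3*, *ZK813.2*, *ZK813.7* and *ZK813.1* on chromosome X (3441839 to 3446935). Chromosome V held 31.3% of the genes that rose and 20.9% of all genes, and chromosome X held 23.2% of those that fell and 14.2% of all.

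The same RNAi was also measured in worms on P-80, in 8 other samples. There 94 genes rose (0.476%) and 44 fell (0.223%). Of the 386 genes that rose with vehicle, 355 (92.0%) had a change above 0 with P-80, against 47.5% of all genes, and 65 of them were called. Of the 194 that fell, 182 (93.8%) had a change below 0, against 52.5% of all genes, and 17 of them were called. No gene called in both was called in opposite directions. The median change with P-80 was 0.15 for the genes that rose and -0.19 for those that fell. These are not compared with the vehicle medians, since the genes were chosen by their vehicle values. The difference between the effects with P-80 and with vehicle, tested as an interaction in limma, was called for 0 genes, with 1168 at an unadjusted p under 0.05 and 1 gene called with voom weights.

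With P-80 the *ech-6* level was 210.4, 237, 176 and 187 CPM in EV and 63.1, 68.3, 72.3 and 61.0 CPM in *ech-6* RNAi, with all 4 RNAi samples low. *acdh-1* rose there by 1.46 (limma adjusted p = 0.00709), *acdh-2* by 1.89 (adjusted p = 0.00111), *hphd-1* by 0.80 (adjusted p = 0.0156) and *hach-1* by 0.46 (adjusted p = 0.0438). *alh-8* was at 0.20 (adjusted p = 0.103). *C09B8.4* rose by 3.18 (adjusted p = 2.72e-05), *folt-2* by 1.52 (adjusted p = 5.60e-05), *irg-1* by 1.74 (adjusted p = 0.00122) and *gst-4* by 0.77 (adjusted p = 3.08e-05). *hsp-16.41* fell by 1.38 (adjusted p = 0.00115) and *hsp-16.2* by 0.97 (adjusted p = 0.00741). The 89 antimicrobial effector genes had 2 higher and 0 lower there. *cnc-2* was at -0.71 (adjusted p = 0.175) and *nlp-30* at -0.59 (adjusted p = 0.565).

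*nduo-3* fell by 0.84 with P-80 (limma adjusted p = 0.0156), while *nduo-2* was at -1.24 (adjusted p = 0.101). The *nduo-2* level with P-80 was 65.1, 64.1, 51.04 and 75.8 CPM in EV and 15.4, 24.7, 18.1 and 74.5 CPM in *ech-6* RNAi. Replicate 4 of *ech-6* RNAi with P-80 was at the EV level for this gene, and its *ech-6* level was the lowest of the 4. *acox-1.2* was at -0.40 (adjusted p = 0.331), *hil-3* at -0.44 (adjusted p = 0.407) and *col-19* at 0.11 (adjusted p = 0.637). Their EV levels with P-80 averaged 27.9 ± 6.10, 15.6 ± 3.68 and 1627 ± 151 CPM (SD, n = 4), near the 25.3 ± 0.628, 13.95 ± 2.296 and 1497 ± 95.4 CPM of *ech-6* RNAi with vehicle.

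**Figure D5:**
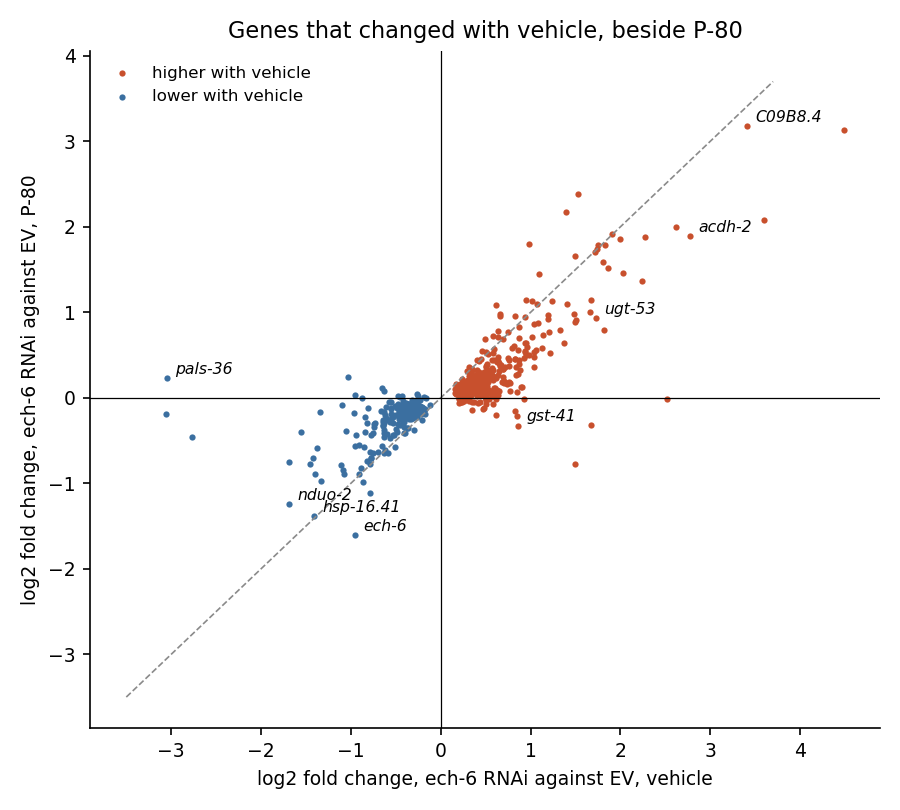
Change with *ech-6* RNAi with P-80 (vertical axis, log2) plotted on that with vehicle (horizontal axis, log2) for the 580 genes called with vehicle, red for those that rose and blue for those that fell. The dashed line marks equal change. Of the genes that rose, 355 lie above 0 on the vertical axis, and 182 of those that fell lie below it.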

How the data were processed

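RNA of whole worms was sequenced from 16 pools, which the labels group by RNAi and supplement. The labels do not say whether the replicates were separate cultures, so p-values measure the spread between these samples. After trimming with Trimmomatic 0.32, the authors used HISAT2 2.0.4 for alignment, with the WBcel235 assembly and Ensembl release 91, and HTSeq 0.6.1 for strand-aware counts per gene. A gene stayed in the table if its count was above 2 in 4 or more samples. The authors deposited TMM-normalized log2 CPM values for 19750 genes, although the header says CPM. No column was left unused. With the constant added before the log removed, 100% of values came out as whole reads (within 0.1), and these reads gave the CPM printed here. TMM takes most genes as unchanged.

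The deposited log2 values were fitted with limma 3.58.1 in R 4.3.3 (mean-variance trend, 1 mean for each of 4 groups, all 16 samples), with two-sided moderated tests and Benjamini-Hochberg adjustment over all genes. The targeted gene was also tested by exact permutation. No pair of replicates was 1 library counted again: their chi-square per gene was 3.16 or more.

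Gene lists, genes and alternatives were chosen with earlier results of these data known. The text names *ech-6*, the shunt genes, and, among called genes of at least 1 CPM on average with groups that do not overlap, the 15 largest rises and the 10 largest falls. It also names every called gene of the shunt, propionate, branched-chain, acyl-CoA dehydrogenase, hydratase, neighbour and mitochondrial DNA lists, and up to 4 called genes of each other list. Further genes, such as *cnc-3*, *cnc-4*, *fbxa-74*, *hsp-70* and the transporters, were chosen after their values were seen. Alternatives changed the fit, filter, scaling or weights, added the replicate number as a block, or left out 1 vehicle sample.

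Coordinates come from a later annotation (Ensembl release 115) of the same assembly, which lacks 85 genes. Sequences of genes and promoters were not used here. Lifespan, lipid and microscopy data were not analysed here. Python 3.11.15, pandas 2.3.3 and matplotlib 3.10.9 made the tables and figures.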

Additional observations from a re-analysis of the deposited data

Results flagged for a closer look

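In 139 genes of the tables, the highest or lowest of 4 samples was tested against the gap to its nearest neighbour (Dixon's test at 95%) in both vehicle groups. Chance gives such a gap in about 1 in 20 groups, and 13 were found in 278 groups. One concerned the targeted gene: *ech-6* RNAi replicate 3 had 7.48 log2 CPM of *ech-6*, 1.31 above the nearest of the other replicates.

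Among *ech-6* RNAi samples, replicate 1 stood apart with 4.76 log2 CPM of *gsto-1*, 6.99 of *cpr-4*, 11.19 of *col-140* and 2.80 of *fbxa-180*, and replicate 2 with 1.84 of *F20G2.5*. Among EV samples, replicate 2 stood apart with 4.23 log2 CPM of *nhr-17*, 6.25 of *ttr-2*, 5.73 of *asp-13*, 8.13 of *prg-1* and -1.75 of *ndfl-4*. EV replicate 4 stood apart with 2.54 of *Y48E1B.8*, and EV replicate 1 with 7.21 of *hphd-1*, within a range of 0.0767.

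*gst-41* was flagged because its groups were apart in opposite directions in the 2 sets of worms, though only the rise with vehicle was called. It had 1.04, 1.28, 0.880 and 0.955 CPM in EV and 1.83, 1.72, 2.13 and 1.84 CPM in *ech-6* RNAi with vehicle, and 2.69, 2.61, 2.57 and 3.0 CPM in EV and 1.98, 2.34, 2.35 and 2.01 CPM in *ech-6* RNAi with P-80. The groups were apart in each set, upward with vehicle and downward with P-80, where the change was -0.33 (limma adjusted p = 0.502). Of all genes, *ech-6* RNAi lay wholly above EV in 6.03% with vehicle and wholly below in 2.06% with P-80. The gene was picked by this separation, which is therefore no separate support. The interaction was -1.18, with an unadjusted p of 5.36e-05 that failed the adjustment over all genes (limma adjusted p = 0.265).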

How the results depend on the processing

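Of the 109 called genes named by the rule, 0 changed direction under the 18 alternatives (17 for 3 low genes) and 52 were called in all that gave a value. The 386 genes higher and 194 lower with vehicle became 171 and 51 without the mean-variance trend and 595 and 428 with sample weights. Fitting the 8 vehicle samples alone gave 878 lower, with the share of higher genes going from 66.6% to 39.4%, and, as an alternative chosen after seeing the data, 669 lower when *ech-6* RNAi replicate 3 was left out too. Voom weights gave 375 and 291. That share was 77.0% without the trend and 56.3% with voom weights. With 1 vehicle sample left out, 166 to 550 were higher and 42 to 258 lower. With P-80 the 94 and 44 became 46 and 21 without the trend. They were 85 to 97 and 36 to 52 with 1 vehicle sample left out. The interaction was called for 1 gene with robust eBayes, with voom weights, with a prior count of 2 and with only genes averaging at least 1 CPM, and for 0 to 1 with 1 vehicle sample left out. With 1 sample left out the *ech-6* difference ran from -1.30 to -0.83. The adjusted p of *ech-6* ran from 1.12e-07 to 0.0850 over the alternatives.

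Samples of the groups share replicate numbers, but same-numbered vehicle samples did not deviate together (correlations from -0.15 to 0.06). Over all 4 groups, 6 of 24 same-numbered pairs were above 0.1. The highest was 0.49, for replicate 3 of EV and of *ech-6* RNAi with P-80. Differently numbered samples reached 0.35, for EV replicate 2 with vehicle and EV replicate 4 with P-80. A replicate block gave 333 higher and 215 lower. EdgeR and DESeq2, planned as alternatives, were not run. With a median SE of 0.14, changes well above that size could go uncalled, most of all for genes under 1 CPM. *dhs-3*, at -0.29 with an SE of 0.077, only just passed (limma adjusted p = 0.0495). A list with 0 calls is therefore not shown to be unchanged.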
